A study of Mus musculus with 13 samples.

Results

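The 7 genes described here, Hmgcs1, Idi1, Fdps, Fdft1, Sqle, Cyp51 and Nsdhl, encode enzymes of cholesterol synthesis, and their messages were followed in mouse aorta around the clock. They were taken by name, with every probe set that the platform annotation assigns to one of them alone. This gave 12 probe sets for 7 genes, of 10833 probe sets and 8251 genes in the series. A probe set is a group of short oligonucleotides on the array that report 1 transcript, and its intensity is its brightness on a linear scale. Of the 12 probe sets, 10 passed the filter on dim signals and represented all 7 genes.

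RNA came from aortae of c57/Bl6 mice, a common inbred strain, and the labels name no mutation and no agent for any mouse. Lights alternated in 12 h spans during 2 weeks of acclimation, and constant darkness for 36 h followed, in which rhythms run without a light signal. Harvests at 4 h spacing over 48 h, with aortae of 6 mice pooled at each, gave 12 pools, named here by their circadian time (CT). CT18 to CT38 form the first cycle and CT42 to CT62 the second, and a circadian time such as CT2 thus has 2 pools, 1 per cycle, for 6 times in all. CT0 to CT12 is the subjective day and CT12 to CT24 the subjective night. There were 13 arrays, since CT18 was hybridised in duplicate, and the CT18 pair was averaged as 1 pool. The labels do not say whether that pair came from 1 pool. Each time point was 1 pool, so all tests measure the spread of pools around a fitted curve or group mean. Age and sex of the mice are not stated in the labels.

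Cholesterol synthesis starts from acetyl-CoA. Hmgcs1, the cytosolic HMG-CoA synthase, makes the precursor of mevalonate, and Idi1 and Fdps turn the isoprenoid units derived from it into farnesyl diphosphate. Fdft1 joins farnesyl units into squalene, Sqle adds oxygen to squalene, and Cyp51 and Nsdhl remove methyl groups from the sterol ring. Transcription of these genes is controlled mainly by SREBP2, a membrane-bound transcription factor that is released when sterols in the endoplasmic reticulum run low and that binds sterol regulatory elements together with NF-Y, a factor of the CCAAT box. In liver the pathway is known to follow the daily cycle of feeding.

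The bases before the transcription start are shown for the 4 members with an entry in the RefSeq promoter table of mouse assembly GRCm38.p6. Of these, Idi1 and Nsdhl had similar courses over the pools while Hmgcs1 and Cyp51 had other courses. A link between these bases and the courses was not tested. Sqle, Fdft1 and Fdps are not shown. Each line holds the 250 bases before the start, 5′ to 3′ on the strand of the gene. Capitals mark matches on either strand to the sterol regulatory element TCACNCCAC, the CCAAT box CCAAT, the E-box CACGTG, the D-box TTATGNAA and the REV-ERB/ROR element AGGTCA, and a CCAAT box on the opposite strand reads ATTGG. The regions are chr13:8885356-8885605 (plus strand) for Idi1, chrX:72918271-72918520 (plus strand) for Nsdhl, chr13:119690101-119690350 (plus strand) for Hmgcs1 and chr5:4104698-4104947 (minus strand) for Cyp51.
Idi1: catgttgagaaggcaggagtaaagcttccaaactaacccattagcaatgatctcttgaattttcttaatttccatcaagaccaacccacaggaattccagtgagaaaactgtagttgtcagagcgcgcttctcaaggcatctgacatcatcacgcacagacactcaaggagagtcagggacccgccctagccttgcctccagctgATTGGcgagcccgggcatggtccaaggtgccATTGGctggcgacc
Nsdhl: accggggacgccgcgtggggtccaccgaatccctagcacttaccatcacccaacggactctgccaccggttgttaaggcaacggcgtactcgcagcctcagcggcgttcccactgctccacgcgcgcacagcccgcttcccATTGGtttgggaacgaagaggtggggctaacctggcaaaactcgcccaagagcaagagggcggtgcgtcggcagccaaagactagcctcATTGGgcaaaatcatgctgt
Hmgcs1: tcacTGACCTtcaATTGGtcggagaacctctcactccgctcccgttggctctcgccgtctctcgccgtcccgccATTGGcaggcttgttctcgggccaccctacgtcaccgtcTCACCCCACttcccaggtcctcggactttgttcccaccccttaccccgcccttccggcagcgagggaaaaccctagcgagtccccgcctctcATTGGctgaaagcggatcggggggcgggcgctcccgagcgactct
Cyp51: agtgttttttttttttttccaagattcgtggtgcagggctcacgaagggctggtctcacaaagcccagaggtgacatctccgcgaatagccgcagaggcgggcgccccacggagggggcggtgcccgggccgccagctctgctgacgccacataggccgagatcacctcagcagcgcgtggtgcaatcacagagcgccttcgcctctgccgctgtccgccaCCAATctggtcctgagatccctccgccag

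All 4 windows held a CCAAT box, with 8 matches in total. Idi1 had matches that begin at -45 and -14, counted from the transcription start, and Nsdhl at -109 and -20. Hmgcs1 had CCAAT matches that begin at -237, -176 and -45, and the only match to the sterol regulatory element in the set, at -137 to -129. Cyp51 had a single CCAAT match at -29. A CCAAT box was present in 33.8% of 32851 promoter windows of this length and the sterol regulatory element in 1.05%. For the clock elements, 0 of 4 windows held an E-box (6.02% of all windows) or a D-box (3.07%), and Hmgcs1 held a REV-ERB/ROR element at -246 to -241 (14% of all windows). These matches describe letters in a short window and were not tested for binding. Only the patterns given above were searched, so variant forms of the sterol regulatory element or another element would be left unmarked.

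The series asks which transcripts of the aorta keep a 24-h rhythm without a light cycle. Among the 7 enzymes, Fdps, Idi1 and Nsdhl were lowest around subjective dusk (CT10 and CT14) in both cycles. Sqle was highest in the middle and late subjective night (CT18 and CT22), and Cyp51 was higher in each subjective night pool than in each subjective day pool. Hmgcs1 had its lowest pool at CT14 in each cycle, but the rest of its course was not shared. Fdft1 had no pattern shared by both cycles. In the fit of a 24-h cosine across all 7453 probe sets kept (limma, Benjamini-Hochberg), 2 of 10 member probe sets passed an adjusted p of 0.05, 1 each for Fdps and Nsdhl. The share called among all probe sets was 0.349% (26 probe sets). At an unadjusted p of 0.05, 7 of 10 member probe sets fell below it, from 5 of the 7 genes, against 9.96% of all probe sets. Fitted peaks lay from CT18 to CT2 in 8 of 10 (43.9% of all), 7 of them at an unadjusted p of 0.05 (4.19% of all). The median amplitude, the distance from mean to peak, was 0.42 (log2) over the 10 member probe sets and 0.18 over all kept. The members were chosen with earlier results of these data known, so these counts and medians are descriptions of the set.

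**Figure D1:**
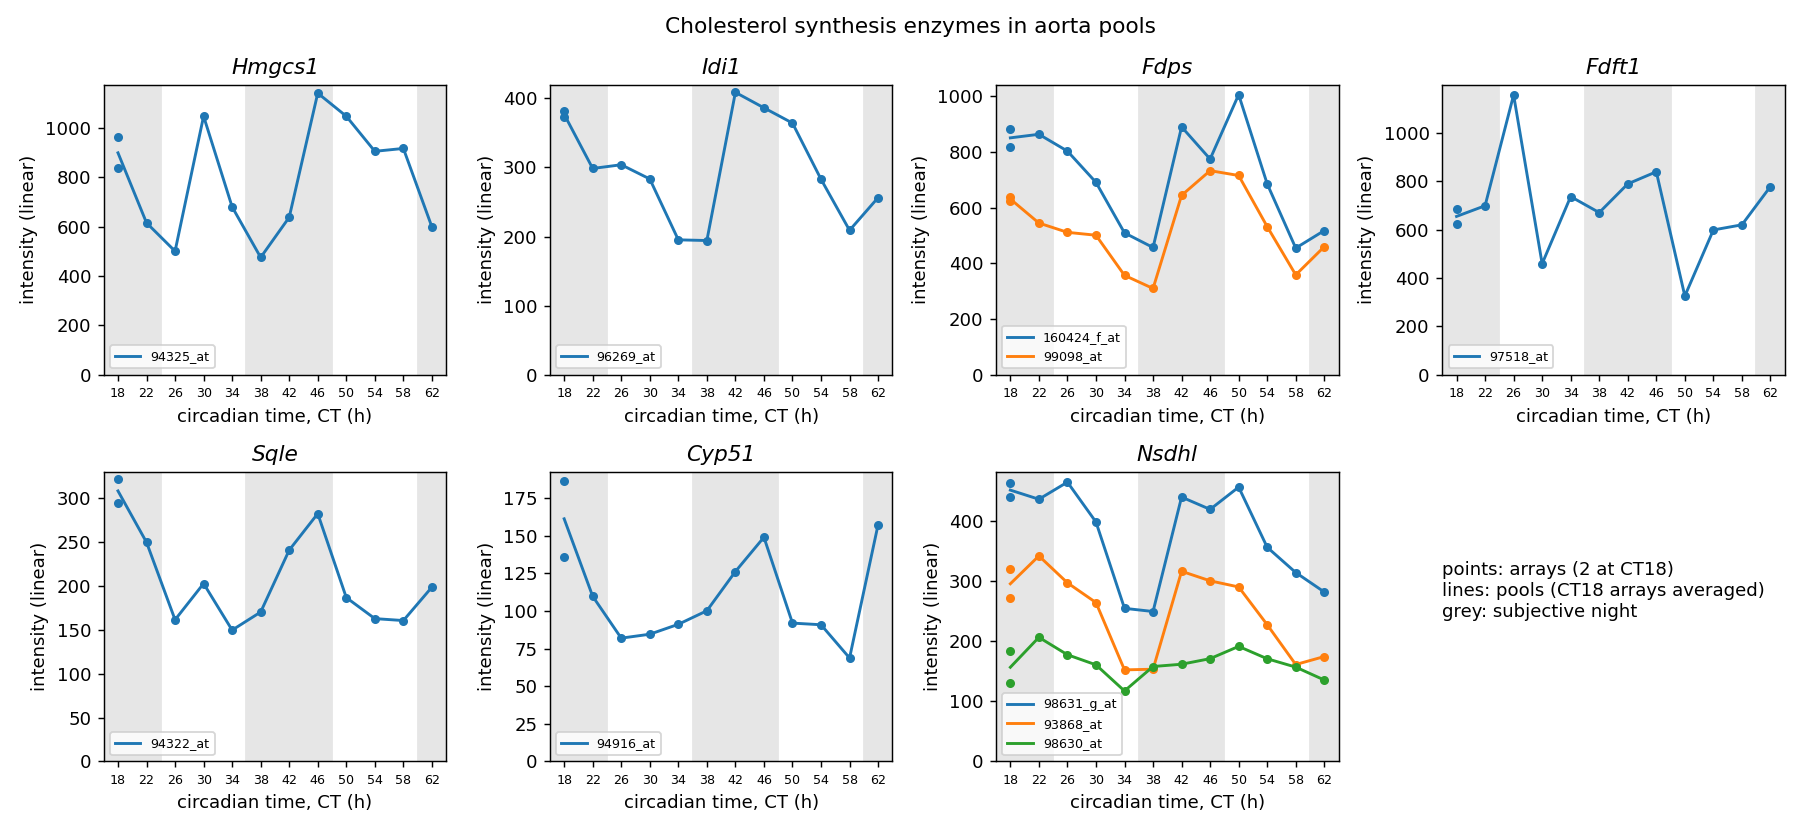
Intensity (linear scale) of each kept probe set of the 7 enzymes against circadian time in hours, with points for arrays, lines for pools and grey bands for subjective night. Fdps, Idi1 and Nsdhl dip at CT34 and CT38 and again at CT58 and CT62, Sqle and Cyp51 are high at CT18 and CT46, Cyp51 is also high at CT62 (158), where Sqle is not (199), and Fdft1 differs most between CT26 (1158) and CT50 (326).

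Fdps, which makes farnesyl diphosphate, had the lowest p of its gene on probe set 160424_f_at. Its intensities in the first cycle, from CT18 to CT38 in steps of 4 h, were 851, 864, 804, 691, 509.7 and 457. In the second cycle, from CT42 to CT62, they were 891, 775, 1007, 686, 455 and 518. The 4 pools of CT10 and CT14 lay between 455 and 518, and the other 8 pools lay between 686 and 1007, so the sets did not overlap. At CT2 this probe set averaged 905 ± 144, and at CT10 it averaged 482 ± 38.6 (SD, n = 2 pools each), a 1.88-fold ratio. The 24-h fit peaked at CT23.3 ± 0.63 h (SE), with an amplitude of 0.49 ± 0.08 on the log2 scale and an adjusted p of 0.0484. The suffix f of this probe set marks it as one that can also match related sequences.

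A further Fdps probe set without that mark, 99098_at, gave a similar course. Its pools of CT10 and CT14 ran from 309.9 to 460.1 and its other pools from 501 to 733, again without overlap. Its amplitude was 0.45 ± 0.10 with a peak at CT22.9 ± 0.82 h, and it did not pass (adjusted p = 0.143). Both remaining Fdps probe sets failed the filter on dim signals. Probe set 162217_r_at read between -3306 and -1917 and 162281_at between -73.5 and -7.01. Both were at the floor in 12 of 12 pools and gave no level.

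Nsdhl, the sterol dehydrogenase that acts in removal of the ring's methyl groups, passed on probe set 93868_at. In the first cycle it read 296, 342, 298, 265, 153 and 154 from CT18 to CT38. In the second cycle it read 317, 301, 291, 228, 161 and 175 from CT42 to CT62. CT10 and CT14 pools lay between 153 and 175 against 228 to 342 in the other 8 pools. At CT22 it averaged 322 ± 29.4 and at CT10 157 ± 6.27 (SD, n = 2 pools each), a 2.05-fold ratio. The amplitude was 0.56 ± 0.09 with a peak at CT23.1 ± 0.61 h (adjusted p = 0.0457).

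The brightest Nsdhl probe set, 98631_g_at, had the same low pools. It read 249.7 to 315 at CT10 and CT14 against 357 to 465 in the other pools. Its amplitude was 0.40 ± 0.08, the peak fell at CT23.6 ± 0.74 h, and it did not pass (adjusted p = 0.0975). The dimmest Nsdhl probe set, 98630_at, read 117 to 158 at CT10 and CT14 against 157 to 207 elsewhere, so its sets overlapped. Its amplitude was 0.23 ± 0.09 (adjusted p = 0.531). Its CT18 arrays read 183.8 and 129.9, while those of 98631_g_at read 440.6 and 463.2.

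Idi1, the isomerase that supplies Fdps with its substrate, was measured by 1 probe set, 96269_at. From CT18 to CT38 it read 377, 298, 304, 283, 195 and 194. From CT42 to CT62 it read 409, 386, 364, 283, 209 and 256. The 4 pools of CT10 and CT14 (194 to 256) lay below the other 8 (283 to 409). CT18 averaged 393 ± 22.5 and CT10 202 ± 9.73 (SD, n = 2 pools each), a 1.94-fold ratio. The amplitude was 0.43 ± 0.10 with a peak at CT22.3 ± 0.88 h, short of the threshold over all probe sets (adjusted p = 0.192).

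Of the 10 member probe sets kept, 5 (from Fdps, Idi1 and Nsdhl) had each CT10 and CT14 pool below each other pool. Among all probe sets kept, 0.832% had that order. These times were picked after the values were seen, so the count is a description with no test. In pooled tissue, fewer cells of a type and less RNA per cell cannot be told apart.

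**Figure D2:**
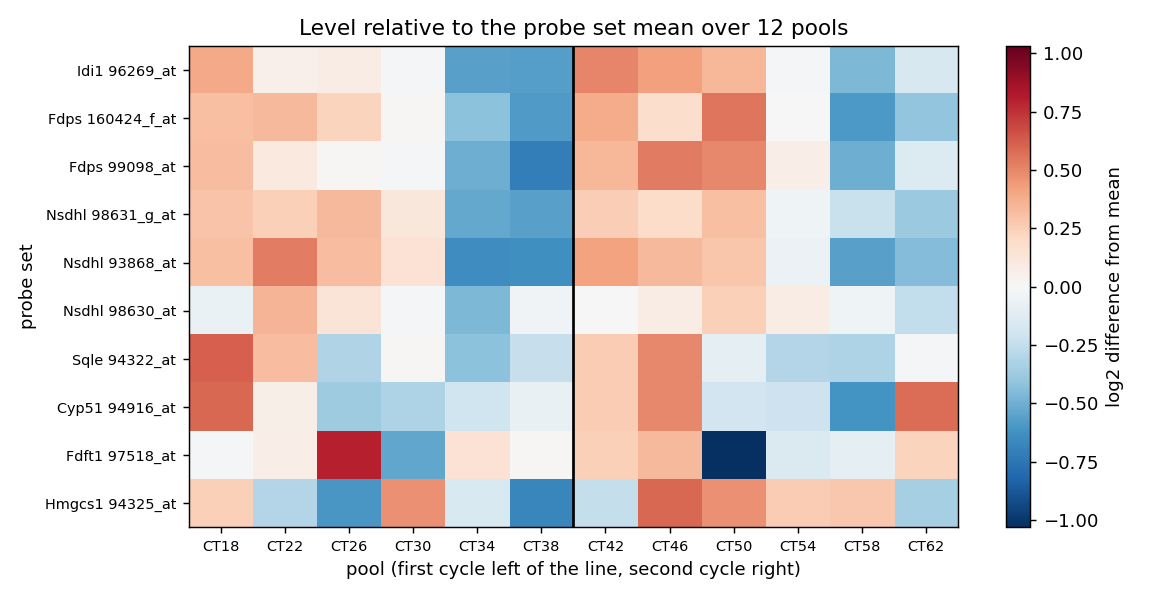
Log2 level of each kept probe set relative to its own mean over the 12 pools, in columns from CT18 to CT62 with a line between the cycles. The rows of Idi1, Fdps and the 2 brighter Nsdhl probe sets are below their mean at CT34, CT38, CT58 and CT62, while Fdft1 is highest at CT26 and lowest at CT50.

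Sqle, squalene epoxidase, stands at the first oxygen-dependent step of the pathway. It was high only at CT18 and CT22 and was already lower at CT2 in both cycles. Probe set 94322_at read 308, 249.8, 161, 203, 149.7 and 170.3 from CT18 to CT38. It read 241, 283, 187, 163, 161 and 199 from CT42 to CT62. The 4 pools of CT18 and CT22 (241 to 308) lay above the other 8 (149.7 to 203), an order that 0.926% of all probe sets kept had. Of the 10 member probe sets kept, 1 had it. These times are those at which Sqle was high, so the share is a description with no test. The mean was 275 ± 47.7 at CT18 and 155 ± 7.74 at CT10 (SD, n = 2 pools each), a 1.77-fold ratio. Its amplitude was 0.39 ± 0.10 with a peak at CT20.0 ± 0.96 h (adjusted p = 0.259), and its unadjusted p was 0.00572.

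Cyp51, lanosterol 14-demethylase, had a similar course on probe set 94916_at at low intensity. It read 161, 109.8, 82.0, 84.6, 91.2 and 100.2 from CT18 to CT38. It read 126, 149, 92.0, 90.9, 68.8 and 158 from CT42 to CT62. Subjective night pools lay between 100.2 and 161 and subjective day pools between 68.8 and 92.0, without overlap, an order found in 0.349% of all probe sets kept. The night minus day difference was 0.64 ± 0.16 (log2, SE; unadjusted p = 0.00174, adjusted p = 0.202). Its fitted peak was CT18.4 ± 1.09 h with an amplitude of 0.44 ± 0.13 (adjusted p = 0.347). The CT18 arrays of this dim probe set read 187 and 136. The fitted peaks of Sqle and Cyp51 came earlier than those of Fdps, Idi1 and Nsdhl; this difference in peak was not tested.

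Hmgcs1, the synthase at the start of the pathway, varied up to 2.40-fold between pools. Apart from a lowest pool at CT14 in each cycle (475 and 598), its course was not shared by the cycles. Probe set 94325_at read 898, 615, 500.1, 1047, 679 and 475 from CT18 to CT38. It read 637, 1140.0, 1047, 904, 916 and 598 from CT42 to CT62. The second-cycle pool of CT2 was 2.09-fold the first-cycle pool, and that of CT22 was 1.85-fold. The amplitude was 0.24 ± 0.16 (adjusted p = 0.759), and the fitted peak of CT3.3 carried an SE of 2.53 h.

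Fdft1, squalene synthase, differed more between its pools of CT2 than between the means of the circadian times. Probe set 97518_at read 655, 699, 1158, 459, 737 and 671 from CT18 to CT38. It read 789.7, 839.8, 326, 599, 620.3 and 779 from CT42 to CT62. At CT2 the second-cycle pool (CT50, 326) was 0.28-fold the first-cycle pool (CT26, 1158), which are the lowest and highest pools of this gene. At the other times the second-cycle pool was 0.84-fold (CT10) to 1.30-fold (CT6) the first-cycle pool. The amplitude was 0.22 ± 0.17 (adjusted p = 0.800). CT26 was also the pool with the highest summed intensity of smooth muscle markers (range over pools 12171 to 17526). The same held for endothelial markers (1786 to 3235) and fibroblast markers (14615 to 20012). The part of these markers in the Fdft1 value was not tested.

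**Figure D3:**
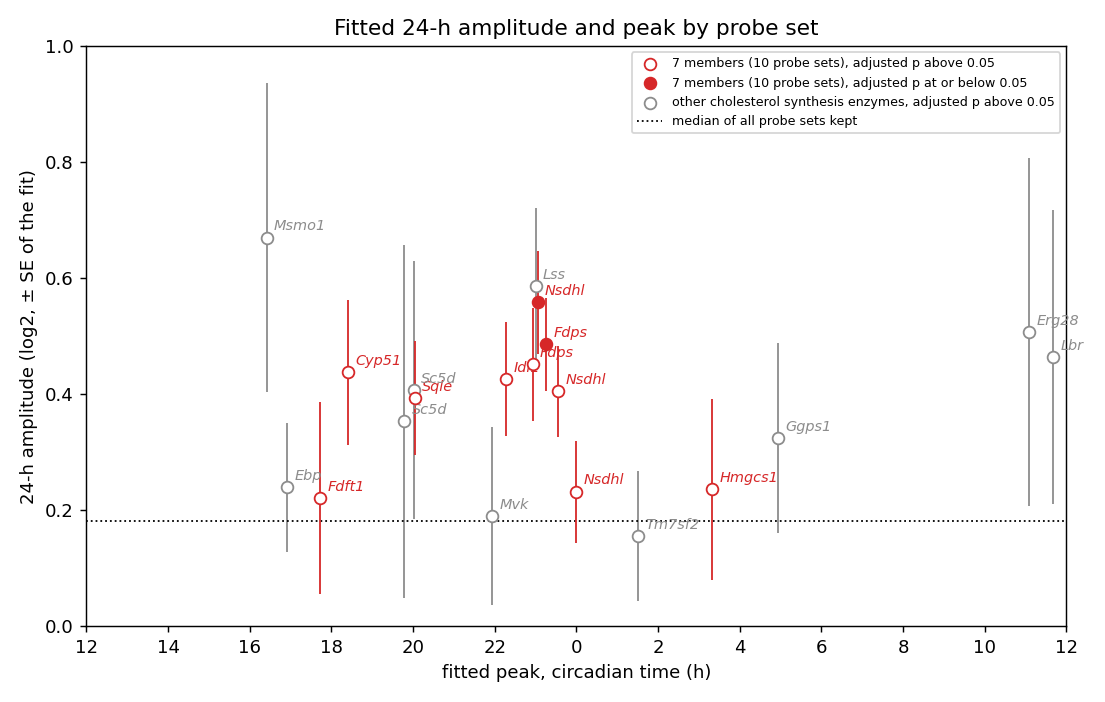
Fitted 24-h amplitude (log2, bars are the SE of the fit) against fitted peak in circadian hours for the 10 member probe sets (red) and other cholesterol synthesis enzymes (grey), with filled points at an adjusted p at or below 0.05. The Fdps, Idi1 and Nsdhl points lie between CT22.3 and CT0, those of Sqle and Cyp51 at CT20.0 and CT18.4, and the dotted line is the median amplitude of all probe sets kept (0.18).

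The pools of the second cycle served as a repeat of the first. Over the 6 circadian times, the correlation of the log2 levels between cycles was 0.90 and 0.80 for the Fdps probe sets, 0.91 for Idi1, and 0.95, 0.96 and 0.41 for the Nsdhl probe sets. It was 0.75 for Sqle, 0.51 for Cyp51, -0.05 for Hmgcs1 and -0.65 for Fdft1. These are descriptions over 6 points that use the same values as the 24-h fit. The SD between pools of the same time was 0.11 to 0.25 (log2) for Fdps, Idi1 and Nsdhl, 0.17 for Sqle, 0.28 for Cyp51, 0.46 for Hmgcs1 and 0.56 for Fdft1. For Fdft1, the correlation and the SD include its CT2 pools (1158 and 326), its widest difference between cycles.

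Subjective night against subjective day gave no call among the members. Night minus day, over 6 pools each, was positive in 9 of 10 member probe sets and negative for Hmgcs1 (-0.24 ± 0.22), with 0 of 10 past the threshold and 2 of 10, Sqle (0.48 ± 0.15) and Cyp51, at an unadjusted p of 0.05. Among all probe sets kept, 0.134% were called, 4 higher (0.0537%) and 6 lower (0.0805%), or 2 higher and 5 lower with arrays centred on their medians. At an unadjusted p of 0.05 it was 8.91%, with 4.15% higher and 4.76% lower. For the rest, the difference was 0.07 and 0.15 for Fdps, 0.21 for Idi1, 0.29 for Fdft1, and 0.01, 0.17 and 0.02 for Nsdhl. In Fdps, Idi1 and Nsdhl both groups mix low and high times, by their means. The night group holds the low CT14 with the higher CT18 and CT22, and the day group the low CT10 with the high CT2.

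No member probe set passed the test between the cycles. The second cycle minus the first ran from -0.16 (Fdft1) to 0.34 ± 0.21 (Hmgcs1), with 0 of 10 member probe sets called by limma, as 0% of all probe sets kept were. At an unadjusted p of 0.05 there was 1 member probe set, 99098_at of Fdps (0.27 ± 0.12), against 7.54% of all (3.23% higher, 4.31% lower). A 12-h component was called in 0 of 10 (0% of all), and at an unadjusted p of 0.05 in 1, Idi1, against 5.84% of all. A difference in rhythm between cycles was called in 0 of 10 (0% of all), also at an unadjusted p of 0.05 (6.98% of all).

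The other enzymes of the pathway on the array had no calls. Of 16 listed, 12 were analysed here, 9 passed the filter, and 0 passed the 24-h test, with 1 at an unadjusted p of 0.05. This was Lss, which closes squalene epoxide into lanosterol, the substrate of Cyp51. Lss (160737_at) read 45.3 to 64.0 at CT10 and CT14 against 66.1 to 144 in the other pools, and its fit peaked at CT23.0 ± 0.87 h (amplitude 0.59 ± 0.13, adjusted p = 0.188). The median amplitude of the 9 genes was 0.41, against 0.40 for the 7 members and 0.18 for all genes by their brightest probe set. A fitted amplitude is never negative and grows with scatter between pools. Some amplitudes of the 9 genes had wide SEs, as in Msmo1 (0.67 ± 0.27), Erg28 (0.51 ± 0.30) and Lbr (0.46 ± 0.25). The fitted peaks of the 9 genes were spread around the clock, with 4 of 9 between CT18 and CT2, against 5 of 7 members. That interval held the peaks of 2459 of all 5655 genes kept.

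The regulators and outlets of the pathway that were analysed had no calls either. Of the SREBP control list, 3 of 10 genes were analysed here and 2 passed the filter, Srebf1 and Mbtps1, with 0 calls. Insig1 was at the floor in 12 pools. Srebf2, the gene of SREBP2, was not among the genes analysed, so its course is not known here. Srebf1, the SREBP gene of fatty acid synthesis, had an amplitude of 0.13 ± 0.21 (adjusted p = 0.945) while its pools ran from 721 to 2195. Of sterol efflux and LXR genes, 8 of 12 were analysed and 0 passed. The lowest p was that of Nr1h3, the oxysterol receptor LXRα, with a peak at CT11.1 ± 1.10 h (amplitude 0.29 ± 0.08, adjusted p = 0.354). Nr1h3 read 295 to 373 at CT10 and CT14, above its 207 to 290.4 in the other pools, where Fdps, Idi1 and Nsdhl had their high values. Each CT10 and CT14 pool lay above each other pool in 0.282% of all probe sets kept.

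Fatty acid synthesis genes, which share SREBP factors and acetyl-CoA with cholesterol synthesis, held 2 calls among 9 genes, against 22 among all 5655 genes kept. Acly, which makes the acetyl-CoA used by both pathways, peaked at CT23.7 ± 0.61 h (0.37 ± 0.06, adjusted p = 0.0457). Its CT10 and CT14 pools (3789 to 4846) lay below the other pools (5238 to 7641), as in Fdps, Idi1 and Nsdhl. Elovl5, which lengthens polyunsaturated fatty acids, passed as well (0.41 ± 0.06, adjusted p = 0.0402) and had its fitted peak at CT20.9 ± 0.58 h. Without the filter on dim signals neither passed (adjusted p = 0.166 for Acly and 0.112 for Elovl5).

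The profiles of the members were compared by Pearson correlation over the 12 pools, which share arrays and tissue makeup. For the brightest probe set of each gene, the 21 pairs ran from -0.58 (Hmgcs1 and Fdft1) to 0.93 (Fdps and Nsdhl), with a median of 0.30 and 5 pairs below 0. Fdps and Idi1 had 0.91, Idi1 and Nsdhl 0.88, and Sqle and Cyp51 0.78. Sqle also had 0.73 with Idi1, 0.57 with Fdps and 0.56 with Nsdhl. Cyp51 had 0.50 with Idi1, 0.26 with Fdps and 0.14 with Nsdhl. Probe sets of 1 gene had 0.91 for Fdps and 0.72 to 0.96 for Nsdhl.

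The genes outside the set whose pools followed the mean of the 7 members most closely were Anp32a (r = 0.94), Scd2 (0.93), Parm1 (0.93), Spin1 (0.91) and Agfg1 (0.90), over 12 pools. Scd2 encodes a stearoyl-CoA desaturase, and its most similar probe set, 162077_f_at, ranged from 709.97 at CT38 to 2212 at CT18. The most opposite were Lpl (r = -0.93), Sgpl1 (-0.91) and Klf9 (-0.91). Lpl, lipoprotein lipase, read 7069 to 7950.1 at CT10 and CT14 against 4995 to 7017 in the other pools. That order was found in 0.282% of all probe sets kept. Lpl was picked for a profile opposite to the members, so its order is a description with no test. Klf9 is a Krüppel-like transcription factor that responds to glucocorticoids, and Sgpl1 degrades sphingosine phosphate.

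Single members had other neighbours. Fdps was followed most closely by Gjb5 (0.93) and the pathway enzyme Lss (0.93), Idi1 by Parm1 (0.95) and Anp32a (0.94), and Nsdhl by Pfkp, a phosphofructokinase (0.92), and Eogt (0.92). The nearest to Sqle were Akap2 (0.92) and Papolb (0.90), to Cyp51 Cpeb2 (0.92) and Ppid (0.89), to Hmgcs1 Gosr2 (0.93) and Ppef2 (0.88), and to Fdft1 Mrvi1 (0.87) and Ywhaq (0.83). Klf9 (3.33 to 209), Gosr2 (-54.7 to 78.3) and Cpeb2 (15.5 to 211) were partly below the floor of 36.7, so their correlations rest in part on values set to it.

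Markers of several tissues were present beside those of the aortic wall. Smooth muscle markers were present (Acta2 3783 to 6848, Myh11 1351 to 1957; 7 of 8 passed the filter), as were endothelial markers (8 of 8 passed; Cdh5 440 to 919). Adipocyte and brown fat markers were bright in all pools (Adipoq 8123 to 9899, Ucp1 5898 to 10111), and 6 of 6 and 5 of 5 passed the filter. The summed adipocyte markers were 18137 to 21030 at CT10 and CT14 against 17419 to 20700 elsewhere, and the summed skeletal muscle markers 4659 to 16597 against 2560 to 13667. The summed endothelial markers were 1786 to 2295 at CT10 and CT14 against 2018 to 3235 elsewhere, and their mean profile had r = 0.50 with the mean of Fdps, Idi1 and Nsdhl (0.61 with Nsdhl 98631_g_at) over 12 pools. Among them, Cldn5, a tight junction gene, had its fitted peak at CT23.1 ± 0.88 h (unadjusted p = 0.00311, adjusted p = 0.192). Its pools ran from 27.7 to 552, with 1 at the floor. Of the 8 endothelial genes, 4 had fitted peaks from CT18 to CT2. The other peaks were at CT4.84 (Tek), CT5.17 (Eng), CT5.30 (Tie1) and CT8.08 (Vwf). The summed brown fat markers were 24405 to 30252 at CT10 and CT14 against 21268 to 29165 elsewhere (r = -0.39). The part of endothelial and brown fat markers in the enzymes' courses was not tested. With covariates for the markers of skeletal muscle, thymocytes and atrium, the amplitudes of Fdps (160424_f_at) and Nsdhl (93868_at) were 0.41 and 0.46 and the adjusted p 0.431 and 0.365. With adipocyte markers as the covariate they were 0.48 and 0.56, with an adjusted p of 0.0628 for each.

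Of the hepatocyte list 3 of 5 passed, and its sum was 5069 to 5707 at CT10 and CT14 against 1850 to 3949 in the other pools. Most of that sum was Cyp2e1, while Alb read at most 163 and Apoa1 was at the floor in 12 pools. Array noise, read as the size of the 5th percentile of each array's intensities, was 69.2 to 95.3 at CT10 and CT14 against 76.1 to 152 elsewhere, and its log2 correlated with the mean of the 7 members (r = 0.69, n = 12 pools). With it as a covariate, the amplitudes were 0.45 for Fdps and 0.50 for Nsdhl (adjusted p = 0.183 and 0.163). Single members correlated with array noise at r from -0.06 (Fdft1) to 0.74 (Sqle).

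**Figure D4:**
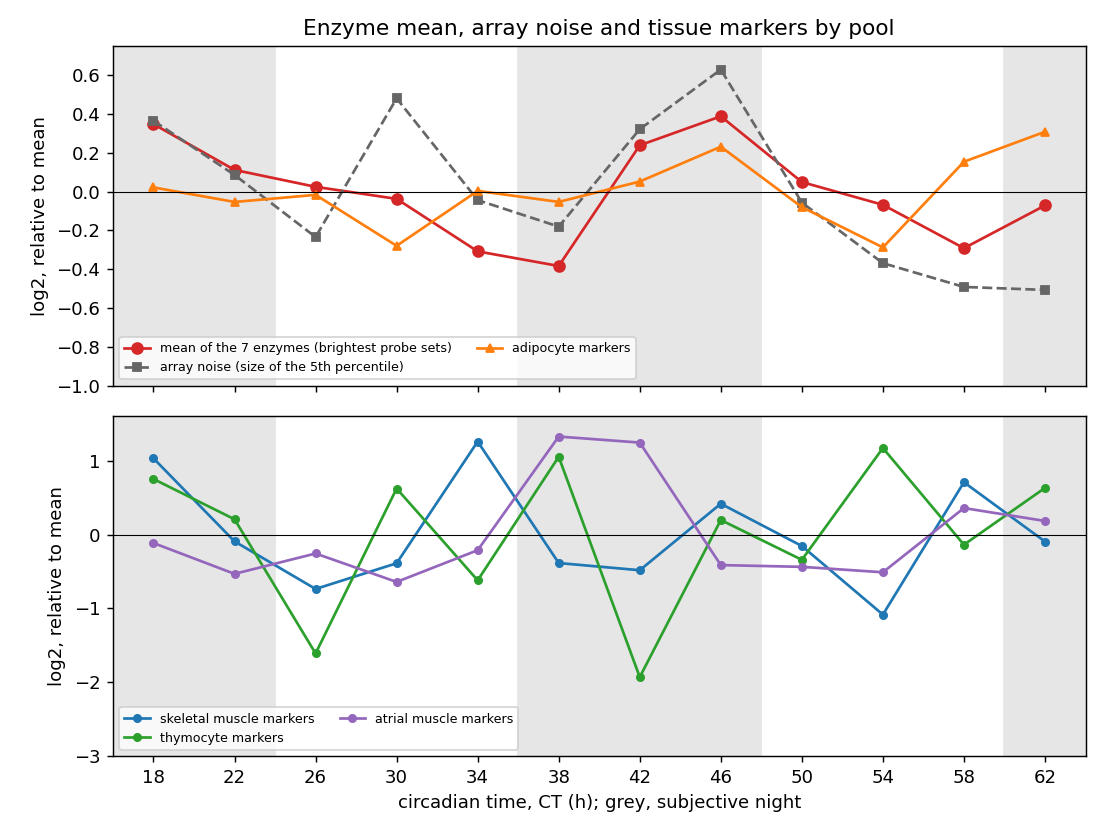
Mean centred log2 profile of the 7 enzymes by pool with array noise and adipocyte markers (upper panel), and skeletal muscle, thymocyte and atrial marker means (lower panel), against circadian time in hours. The enzyme mean is lowest at CT38 (-0.38) and highest at CT46 (0.39), where array noise is also highest (152).

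Both calls were close to the threshold and rested on the full set of pools. Of 14 fits that left out a pool or a CT18 array, Fdps (160424_f_at) kept its call without CT30 (adjusted p = 0.0484) and without CT46 (0.0409). It lost the call without either CT18 array or both, and without CT22, CT26, CT34, CT38, CT42, CT50, CT54, CT58 or CT62 (highest adjusted p = 0.165, without CT58). Nsdhl (93868_at) kept its call without CT18 array 2 (0.0428) and without CT30 (0.0300), and lost it without CT18 array 1 or both CT18 arrays, and without CT22, CT26, CT34, CT38, CT42, CT46, CT50, CT54, CT58 or CT62 (highest 0.123, without CT34). Over these fits the amplitude ran from 0.45 to 0.54 for Fdps and from 0.52 to 0.60 for Nsdhl.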

How the data were processed

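Total RNA of pooled aortae was hybridised to one-colour oligonucleotide arrays, per the labels. The authors deposited linear intensities, 1 for each probe set of an array, and neither their software nor their scaling is given in the sources used here. The mean left after trimming 2% at each end was 200.2 on all 13 arrays, so values were used as deposited. Between 21.3% and 24.2% of an array's intensities were at or below 0. Array medians were 70.4 to 87.6. The number of arrays limits the precision.

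After 66 control probe sets were removed, 12422 remained, of which 10833 were assigned to 1 gene, 396 to several and 1193 to none. Values under 36.7 (20th percentile of positive values) were set to that floor, log2 was taken and the CT18 arrays were averaged. Probe sets with a mean at or above the 40th percentile (48.5) were kept (7453). Median differences between the CT18 arrays were 0.19 (log2) over all kept and 0.13 over member probe sets. limma 3.58.1 (R 4.3.3) fitted 24-h cosines, night minus day, cycle, 12-h and cycle-by-rhythm terms, with moderated tests (intensity trend) adjusted by Benjamini-Hochberg over all probe sets kept and a threshold of 0.05. The fits were tested on simulated data. Figures were drawn with matplotlib 3.10.9.

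The members and gene lists were chosen with earlier results of these data known. Named were all members, for each list the genes past the 24-h threshold (else the lowest p), and the 5 most and 3 least similar profiles, with 2 per member. Alternatives changed floor, transform, filter, normalization, moderation, CT18 averaging, covariates and pools; array noise as a covariate and circadian time as a block were chosen after seeing the data.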

Additional observations from a re-analysis of the deposited data

How the results depend on the processing

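With 26 probe sets called for a 24-h rhythm, 2 of them of the enzymes, the alternatives gave 14 and 0 with array noise as a covariate, 12 and 0 with adipocyte markers, 9 and 0 with skeletal muscle, thymocyte and atrial markers, 5 and 0 with arrays centred on their medians, and 4 and 0 each without an intensity trend, without moderation and without a filter. The enzymes had 1 call with the floor at the 10th percentile, with the asinh transform and with the CT18 arrays averaged on the linear scale. Leaving out a pool or a CT18 array gave 8 to 40 calls in all and 0 to 2 among the enzymes. Night minus day had 10 calls in all, and 17 with quantile normalization, 6 without a trend and with the 3 tissue covariates, 4 with adipocyte markers, 1 without a filter, 0 without moderation, and 3 to 18 on leaving out a pool or array. The 12-h test had 0 calls in all, but 1 with a stricter filter (60th percentile), 1 without moderation, 2 without a filter and 0 to 4 on leaving out a pool or array. The cycle test had 0, and 0 to 2 on leaving out a pool or array. The cause was not tested, except that moderation, trend and filter change the test itself.

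Of the 2 called member probe sets, Fdps (160424_f_at) kept its call in 5 of 27 alternatives and Nsdhl (93868_at) in 8 of 27, so 41 such values lost it. Over all 10 member probe sets, 0 of 269 fitted peaks moved by more than 6 h. Night minus day changed sign in 19 of 269, all in Nsdhl or Fdps with uncalled differences. With quantile normalization the Nsdhl values were -0.0040 (98631_g_at) and -0.011 (98630_at), and with median centring -0.032 and -0.023. With array noise they were -0.11, -0.00054 and, for 93868_at, -0.0038, and Fdps (160424_f_at) had -0.072. Leaving out a pool or array gave -0.091 to 0.13 for 98631_g_at (-0.044 without both CT18 arrays), -0.068 to 0.076 for 98630_at and -0.038 to 0.20 for Fdps.

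By replicate number, no paired analysis was possible because all time points share the number 1 and a single array carries the number 2. Pools do pair by circadian time across the cycles. With circadian time as a block (6 pairs, chosen after seeing the data), the cycle test called 0 of 7453 probe sets, with 601 at an unadjusted p of 0.05, of which 1 was a member, Fdps 99098_at (0.27 ± 0.11, adjusted p = 0.586).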

Other observations

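Among the marker lists, Cyp2e1, a cytochrome P450 known from liver that fat also expresses, was chosen after its values were seen. Its 4 pools of CT10 and CT14 read 4715 to 5461, against 1563 to 3673 in the other 8 pools, so its high pools were those in which Fdps, Idi1 and Nsdhl were low. That order was found in 0.282% of all probe sets kept. The 24-h fit peaked at CT10.5 ± 1.21 h with an amplitude of 0.48 ± 0.15 on the log2 scale (SE), which did not pass over all probe sets (adjusted p = 0.419).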
